A study of Mus musculus with 5 samples.

Results

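The integrin and laminin genes of the E10.5 mouse heart were examined by Tag-seq. All genes of the reference annotation whose symbols mark an integrin alpha chain (Itga), an integrin beta chain (Itgb) or a laminin chain (Lama, Lamb, Lamc) were taken, without the integrin-binding protein and integrin-like genes. There were 38 such genes of 24297 in the reference, namely 18 alpha chains, 9 beta chains and 11 laminin chains, and 29 of them had a listed tag in at least 1 library, as had 13489 genes in all. The 9 with none were Itga11, Itgad, Itgae, Itgam, Itgax, Itgb2l, Itgb4, Itgb6 and Itgb7.

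Libraries had been made from dissected heart regions of wild type C57BL/6 embryos, which were the atrioventricular canal (AVC), the outflow tract (OFT), the atria and the ventricles. A further library came from the AVC of Twist1 Knockout embryos of the ICR strain, here called the *Twist1* null AVC. All embryos were at embryonic day 10.5 (Theiler Stage 17), at least 3 litters were pooled for each library, and each of the 5 groups had 1 library. The study's methods state that blood had been let out of the hearts by puncture and washing. Strain and genotype differed together between the null and the wild-type AVC and cannot be told apart. No library had a replicate, so every test below compares single libraries and not conditions, and intervals cover counting error only. A lower level in a pooled tissue can mean fewer cells of a type or less RNA per cell, which cannot be told apart here.

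Tag-seq counts a 17-base tag next to a CATG site, the cutting site of the enzyme NlaIII, in cDNA captured by its poly(A) end. A level is given in tags per 1000000 listed tags (TPM), and since each transcript gives about 1 tag, it is not divided by transcript length. The libraries held 6075421 (AVC), 5267618 (OFT), 4666514 (atria), 4223810 (ventricles) and 12977237 (null) listed tags. Only tag types read at least 6 times are listed, so a single tag type had to reach 0.988, 1.14, 1.29, 1.42 and 0.462 TPM in the same order, and a gene called not listed may lie below these limits. *Twist1*, the targeted gene, was at 918 TPM (AVC), 299 (OFT), 63.4 (atria), 55.9 (ventricles) and 4.55 (null), a level 202-fold lower in the null than in the wild-type AVC (exact p = 2.61e-15). Which part of the gene the null allele lacks is not stated in the labels, so whether the counted tags lie inside it was not examined.

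The dissected tissues were checked against marker genes. The summed level of 7 cushion mesenchyme genes was 2328 TPM (AVC), 3062 (OFT), 178 (atria), 179 (ventricles) and 487 (null). All 7 were called higher in the AVC and in the OFT than in the chambers by the test described below, and 5 in each with TMM scaling. Cardiomyocyte genes were present in all libraries (8828 to 27512 TPM for 11 genes), as were endothelial and endocardial genes (209.6 to 605 TPM for 9 genes). Haemoglobin genes made up 21.5% of the atrial tags, 4.67% of ventricular tags and between 0.242% and 2.73% of the tags of the other libraries. Leukocyte genes were at or near 0, with 6.91 TPM in the AVC and none listed in the ventricles, and *Lyz2* was not listed in any library.

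Integrins are cell surface receptors made of an alpha and a beta chain, and they tie the cytoskeleton to the surrounding matrix. The alpha chain largely sets the ligand: some alpha chains bind laminins, some bind collagens, some bind an arginine-glycine-aspartate motif found in fibronectin and other proteins, and alpha4 and alpha9 bind fibronectin, VCAM-1 or tenascin-C. Laminins are trimers of an alpha, a beta and a gamma chain and form the scaffold of basement membranes, such as those under the endocardium and around cardiomyocytes. In the AVC and OFT at this stage, endocardial cells leave their basement membrane and enter the matrix between endocardium and myocardium to form the cushions.

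Of the 315529 distinct tags expected at NlaIII sites of RefSeq-linked transcripts, 139 that belong to a member alone were read, 81 in a 3′ UTR, 56 in coding sequence and 2 in a 5′ UTR. The tags below carry the results that follow. Each is written from its CATG site in capitals, with the 17 counted bases in lower case, and coordinates are those of GRCm38, found by matching the tags to GENCODE M21 transcripts, while the submitters' processing notes name mm9.
Itgb1 site 1, 3′ UTR, chr8:128733087-128733107, plus strand: CATGcttgctctgtctcgaac
Itgb1 site 3, 3′ UTR, chr8:128732432-128732452, plus strand: CATGactgattttcagcttca
Itga4 site 1, 3′ UTR, chr2:79332588-79332608, plus strand: CATGctactttgcaatcattc
Itga6 site 1, 3′ UTR, chr2:71855952-71855972, plus strand: CATGgataacctcgaaaaaaa
Itga6, past the RefSeq end, chr2:71858063-71858083, plus strand: CATGtttaaatttaatagttg
Itga6, farther past the RefSeq end, chr2:71858250-71858270, plus strand: CATGtatgtgaaagcaaactc
Lamb1 site 1, coding sequence of exon 30, chr12:31326601-31326621, plus strand: CATGgtgaaggaagcattaga
Lama4 site 1, coding sequence of exon 37, chr10:39106012-39106032, plus strand: CATGtagttgggccgttgaat
Lamc1 site 1, 3′ UTR, chr1:153219088-153219108, minus strand: CATGgaattttcctttgattc
Lamc1 site 2, 3′ UTR, chr1:153219625-153219645, minus strand: CATGtgatgactgaacacttg
Lamb3 site 1, 3′ UTR, chr1:193343657-193343677, plus strand: CATGactacattgaggagaga
Sites are numbered from the 3′ end of the transcript, so site 1 is the one from which a fully cut cDNA gives its tag. The Itgb1 and Lamc1 pairs are shown because their sites can be compared within a gene, the Itga6 set because its tags disagree between sites, and the others because 1 tag carries most or all of the gene's count. Site 1 of Itga4 also lies opposite the gene Cerkl, and the tags keep their strand.

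Members were compared in 5 ways by the exact test of edgeR at a fixed dispersion of 0.12. A gene is called when its unadjusted exact p is under 0.05, and for each comparison the share of all genes called is printed beside the count of members. The AVC and the OFT were each set against the atria and ventricles summed, and since both share the same chamber libraries their values stand side by side and are not independent.

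Most integrin and laminin genes with a listed tag were higher in the cushion regions than in the chambers. In the AVC against the chambers 16 of 25 members tested were called higher, where 43.4% of all genes were, and 1 was called lower, where 8.12% were. The other 13 members had no listed tag in these libraries. The median log2 ratio of the tested members was 2.48, and that of all genes was 1.23. In the OFT against the chambers 17 of 26 members were called higher (40.6% of all genes) and 2 lower (8.88%), with a median log2 ratio of 2.88 beside 1.07 for all genes, and 12 members were not tested. Scaling by TMM moved the ratios of all genes by -0.95 and -0.85 in these comparisons, after which 13 members were called higher and 1 lower in the AVC (25.7% and 17.5% of all genes) and 15 higher and 3 lower in the OFT (26.2% and 17.7%). The cushion mesenchyme markers moved with these counts, as did 7 (AVC) and 6 (OFT) of 11 cardiomyocyte markers before TMM scaling. The part of either list was not tested. By class, 5 of 12 alpha chains, 5 of 5 beta chains and 6 of 8 laminin chains tested were called higher in the AVC. The same classes had 7 of 13, 3 of 4 and 7 of 9 for the OFT. With 5 tags granted to each missing tag type, 13 members were called higher and 1 lower in the AVC (28% and 5.34% of all genes), and 12 higher and 2 lower for the OFT (25.6% and 5.69%).

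**Figure D1:**
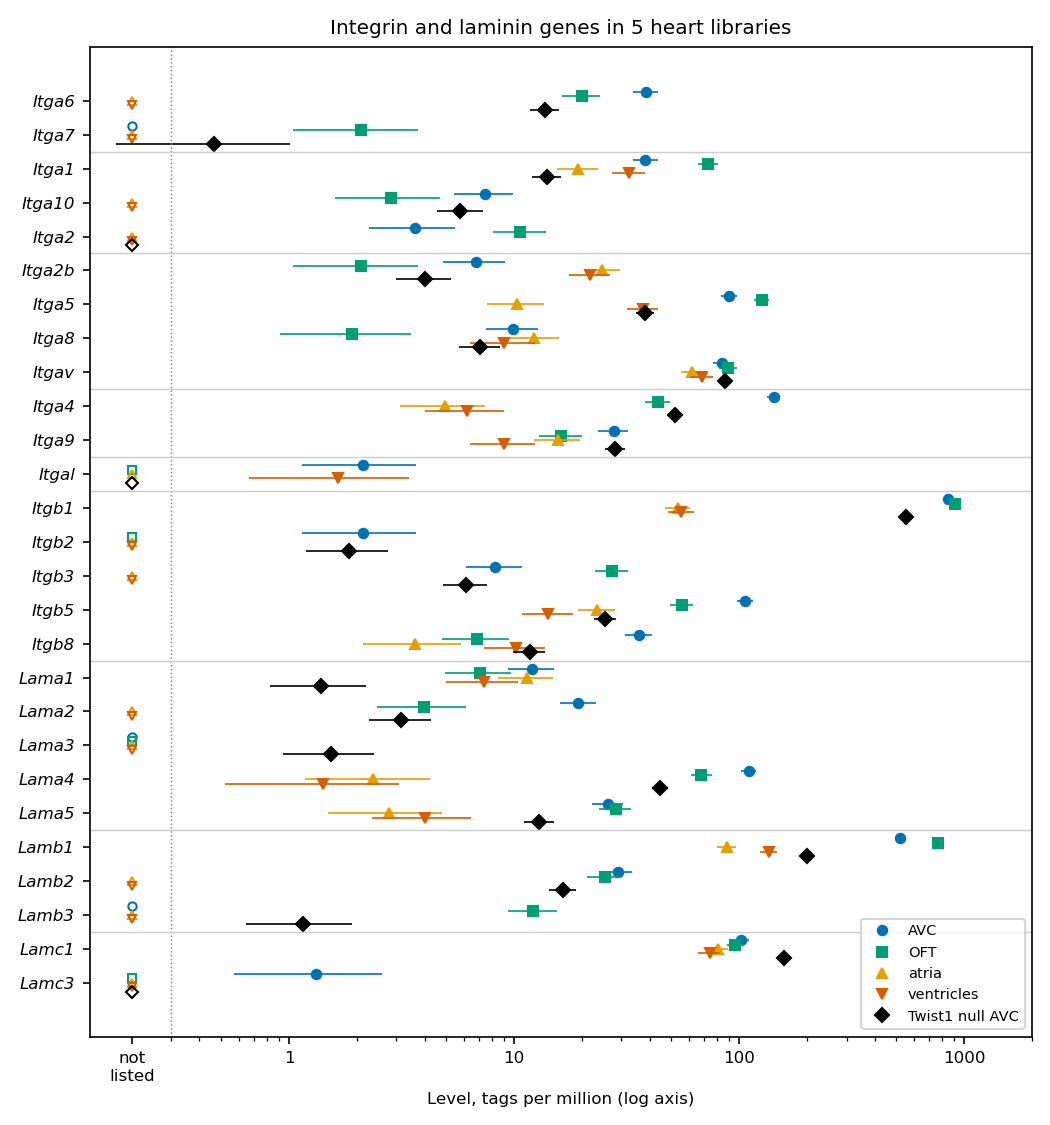
Levels of the plotted members in each library in TPM on a log axis, with filled symbols for listed levels, bars for exact 95% counting intervals, and open symbols at the left for genes not listed. *Itgb1*, *Lamb1* and *Lama4* show AVC and OFT symbols far to the right of both chamber symbols, while the symbols of *Itgav* and *Lamc1* lie close together, and the open chamber symbols of *Itga6* count RefSeq-linked tags only.

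**Figure D2:**
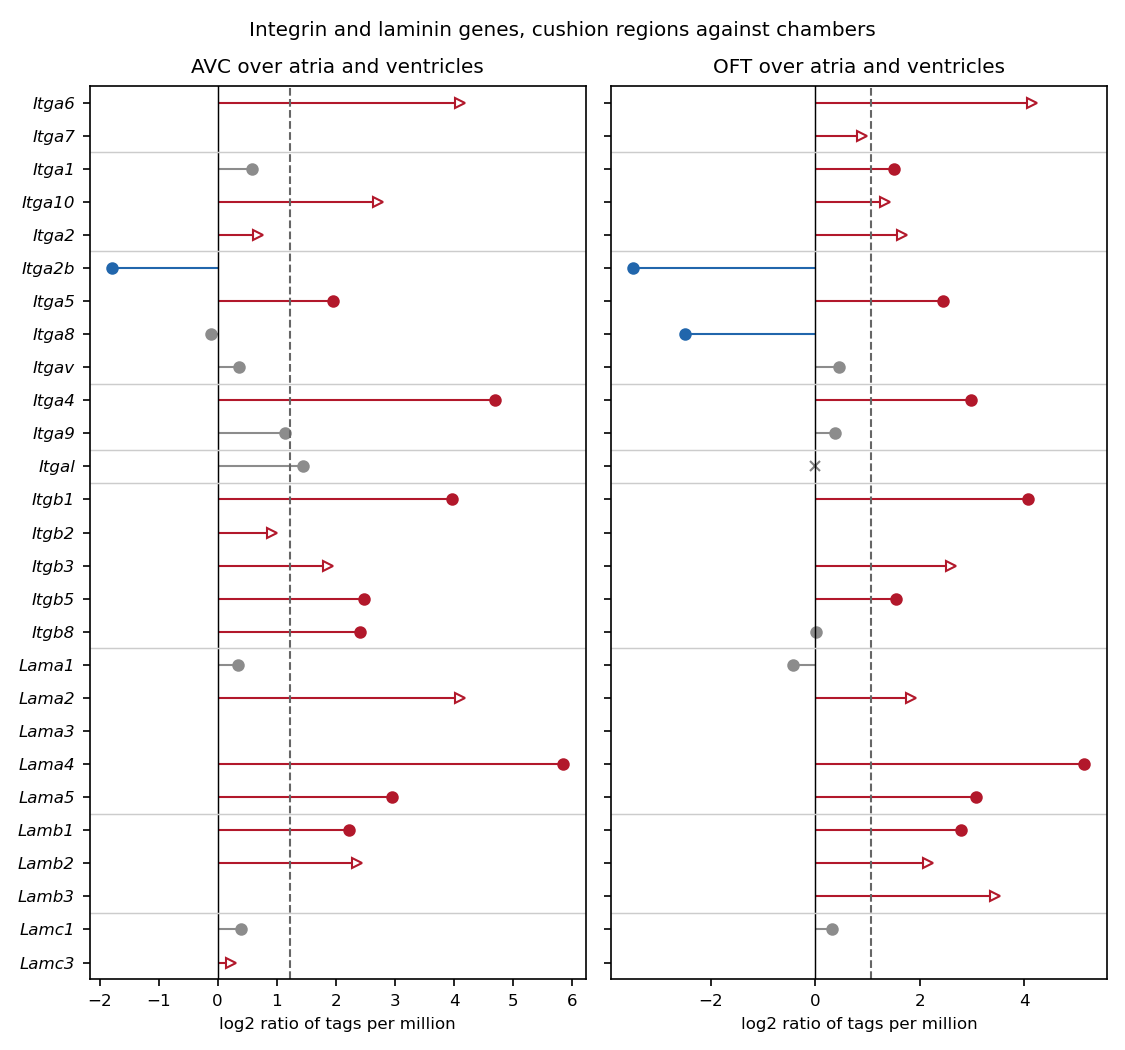
log2 ratios of TPM in the AVC (left) and the OFT (right) over the summed chambers for the plotted members, red where called higher, blue where called lower and grey where not called. Open arrowheads are bounds for genes not listed on one side, a cross marks a gene within the listing limit, and the dashed line is the median of all genes (1.23 and 1.07).

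Among the beta chains, *Itgb1*, the partner of most alpha chains that bind matrix, was at 849 TPM (AVC), 912 (OFT), 53.4 (atria), 55.4 (ventricles) and 552 (null). Both cushion libraries and the null stood far above the atria and ventricles, and the counting intervals of the AVC (826 to 872 TPM) and the atria (46.9 to 60.4) lay far apart. It was 15.6-fold higher in the AVC (log2 ratio 3.97, exact p = 9.72e-07) and 16.8-fold higher in the OFT (log2 ratio 4.07, exact p = 5.65e-07) than in the chambers. Sites 1 and 3 shown above both carried this difference: site 1 gave 560.0 TPM (AVC), 575 (OFT), 39.2 (atria), 39.8 (ventricles) and 380.2 (null), and site 3 gave 276 TPM (AVC), 322 (OFT), 14.1 (atria), 15.6 (ventricles) and 137 (null). The call held in every alternative setting tried.

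*Itgb5*, which pairs with alpha v, was at 106 TPM (AVC), 55.6 (OFT), 23.4 (atria), 14.2 (ventricles) and 25.4 (null). The AVC was 5.59-fold above the chambers (exact p = 0.00120) and the OFT 2.93-fold (exact p = 0.0393), and the OFT call was lost with TMM (exact p = 0.350). *Itgb8*, another alpha v partner known for activating latent TGF-beta, was at 35.7 TPM (AVC), 6.83 (OFT), 3.64 (atria), 10.2 (ventricles) and 11.7 (null). The wild-type AVC was highest, 5.29-fold above the chambers (exact p = 0.00214, or 0.0575 with TMM), and the OFT was not called against them (log2 ratio 0.02). *Itgb3*, the alpha v and alpha IIb partner, was listed at 8.23 TPM (AVC), 27.1 (OFT) and 6.09 (null) and not in the chambers, which is at least 3.66-fold and at least 6.03-fold higher when 5 tags are granted to each missing tag type. *Itgb2*, the leukocyte beta chain, had 13 tags in the AVC and 24 in the null, and its call in the AVC (exact p = 0.00202) was lost when 5 tags were granted to the chambers (exact p = 0.362). The leukocyte markers, named above as near 0, also had their highest sum in the AVC, at 6.91 TPM, but with 6.07 in the OFT and 1.23 in the null. That order differs from the order of *Itgb2*, which was not listed in the OFT and was at 2.14 TPM (AVC) and 1.85 (null). The part of leukocytes in the *Itgb2* result was not tested.

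Among the alpha chains, *Itga4*, which with beta1 binds fibronectin and VCAM-1, had the highest ratio of AVC to chambers among alpha chains listed on both sides. It was at 142 TPM (AVC), 43.5 (OFT), 4.93 (atria), 6.16 (ventricles) and 51.8 (null). The AVC was highest and the chambers lowest, 25.8-fold apart (exact p = 4.06e-08), and the OFT was 7.89-fold above the chambers (exact p = 2.04e-04). With 5 tags granted to each missing tag type, the log2 ratio fell from 4.69 to 3.13 in the AVC (exact p = 7.08e-05). In the OFT it fell from 2.98 to 2.26 (exact p = 0.00342). *Itga9*, the other chain of that group, was at 27.7 TPM (AVC), 16.1 (OFT), 15.6 (atria), 9.0 (ventricles) and 28.2 (null), and it was called in neither comparison (log2 ratio 1.15, exact p = 0.131 in the AVC, and 0.37, exact p = 0.634 in the OFT).

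*Itga5*, the fibronectin receptor alpha chain, was at 90.0 TPM (AVC), 126 (OFT), 10.3 (atria), 37.4 (ventricles) and 38.1 (null). The cushion libraries were higher, by 3.89-fold in the AVC (exact p = 0.00938, or 0.172 with TMM) and 5.44-fold in the OFT (exact p = 0.00140), and the ventricles were 3.64-fold above the atria (exact p = 0.0180). *Itgav* was at 83.9 TPM (AVC), 89.4 (OFT), 61.9 (atria), 68.4 (ventricles) and 86.9 (null), and it was not called in any comparison. *Itga8*, a nephronectin receptor, was at 9.88 TPM (AVC), 1.90 (OFT), 12.2 (atria), 9.0 (ventricles) and 7.09 (null). The OFT was lowest, 5.63-fold below the chambers (exact p = 0.00548). The summed level of the 5 epicardium markers was also lowest in the OFT, at 242 TPM (AVC), 78.8 (OFT), 279.9 (atria), 241 (ventricles) and 158 (null). Against the chambers, 3 of them were called lower in the OFT and 1 higher, which was *Wt1*, at 15.6 TPM (AVC), 8.54 (OFT), not listed (atria), 1.66 (ventricles) and 9.71 (null), named after its values were seen. Their part in the *Itga8* result was not tested.

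*Itga2b*, the platelet integrin chain, ran the other way, with 6.75 TPM (AVC), 2.09 (OFT), 24.6 (atria), 21.8 (ventricles) and 4.01 (null). The chambers were highest, 3.45-fold above the AVC (exact p = 0.0227) and 11.2-fold above the OFT (exact p = 7.55e-05). A single tag type measured it, because the tag at its last NlaIII site is a run of A that 235 genes share. The 6 platelet and megakaryocyte markers, which do not include *Itga2b*, summed to 43.9 TPM (AVC), 5.89 (OFT), 11.4 (atria), 24.9 (ventricles) and 8.63 (null). That order differs from the order of *Itga2b*, since the AVC had the highest sum, and all 6 were listed in at least 1 library. Erythroid genes, at 2422 to 215353 TPM, were also highest in the atria and ventricles, and the part of blood cells in this result was not tested.

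The collagen-binding chains were each called higher in at least 1 cushion region, apart from *Itga11*, which was not listed. *Itga1* was at 38.4 TPM (AVC), 72.9 (OFT), 19.3 (atria), 32.4 (ventricles) and 14 (null), and was called higher in the OFT alone (2.86-fold, exact p = 0.0420, or 0.371 with TMM). *Itga10* had 7.41 TPM (AVC), 2.85 (OFT) and 5.78 (null), and was not listed in the chambers, at least 6.58-fold below the AVC and 2.53-fold below the OFT. *Itga2* had 3.62 TPM (AVC) and 10.6 (OFT) and was not listed elsewhere. With 5 tags granted to each missing tag type, the *Itga10* call in the AVC stood (exact p = 0.00308) and that in the OFT was lost (exact p = 0.171), and the reverse held for *Itga2* (exact p = 0.462 and 0.0464).

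*Itga6*, a laminin-binding chain, was the one named member whose calls changed with the transcripts counted. Its RefSeq-linked tags gave 38.5 TPM (AVC), 19.9 (OFT) and 13.7 (null) and were not listed in either chamber, at least 17.1-fold below the AVC (exact p = 4.47e-12). A further 5 tag types lay 51 to 1479 bases past the RefSeq end of the gene, on its strand, in an exon of an annotated transcript without a RefSeq link. The tag at 1292 bases was read at 90.7 TPM (AVC), 40.6 (OFT), 30.2 (atria), 34.1 (ventricles) and 228 (null), and the tag at 1479 bases at 83.5 TPM (AVC), 30.4 (OFT), 65.6 (atria), 52.6 (ventricles) and 175 (null). These sites were thus read in the chambers too, and most in the null.

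With all annotated transcripts counted, *Itga6* was at 244 TPM (AVC), 106 (OFT), 98.8 (atria), 90.0 (ventricles) and 482 (null). It was then called in neither cushion region against the chambers (log2 ratio 1.37, exact p = 0.0621 in the AVC, and 0.16, exact p = 0.824 in the OFT). Whether these tags occur elsewhere in the genome was not examined. Of the other laminin-binding chains, *Itga3* ranged from 1.42 to 7.02 TPM over the libraries without a call, and *Itga7* had 11 tags in the OFT and 6 in the null.

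**Figure D3:**
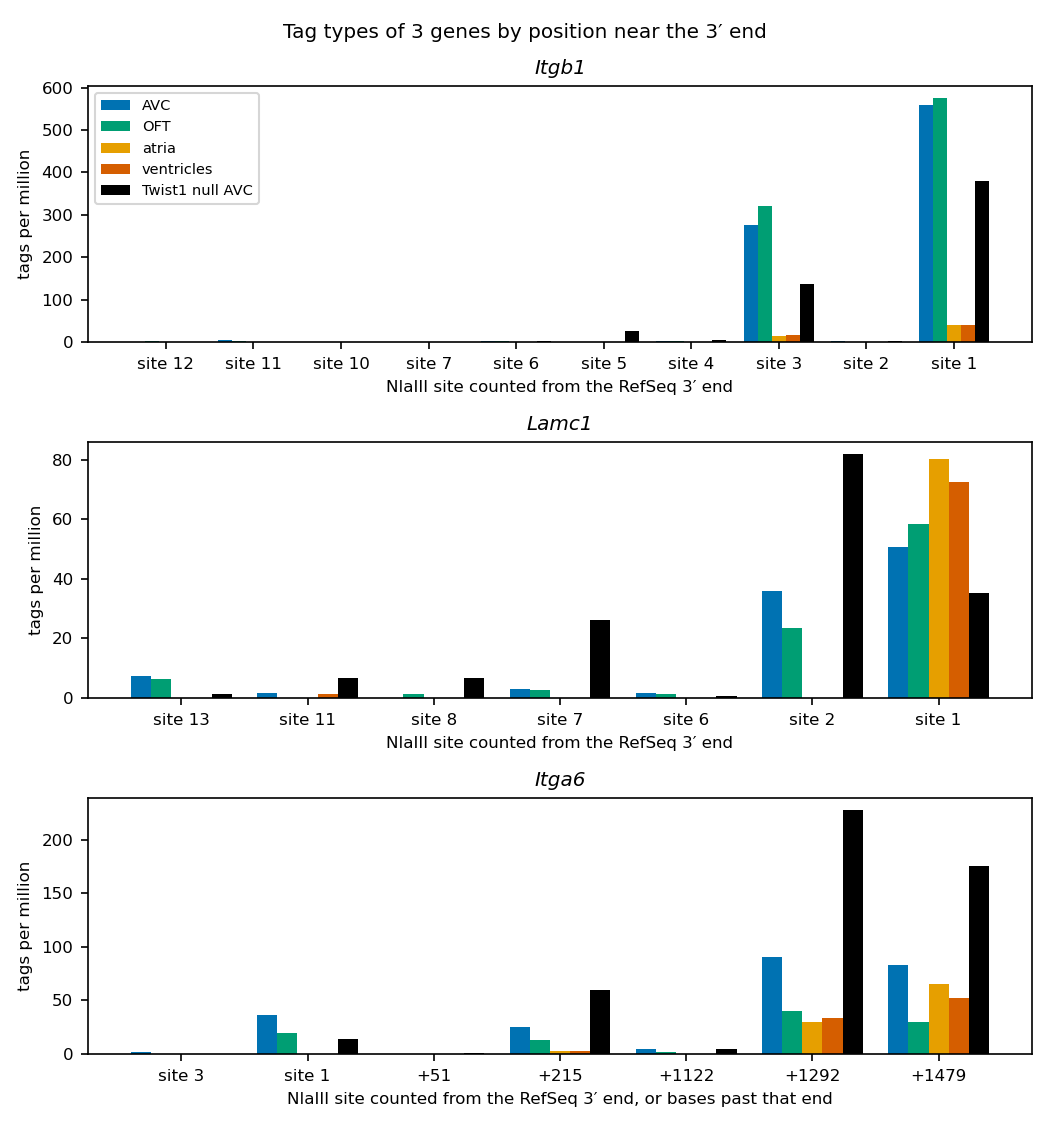
TPM of each listed tag type near the 3′ end of *Itgb1*, *Lamc1* and *Itga6*, with sites numbered from the RefSeq 3′ end and, for *Itga6*, bases past that end; colours mark the library. Both main *Itgb1* sites show the same order of libraries, *Lamc1* site 1 is highest in the atria while site 2 was not listed in the chambers, and the *Itga6* sites past the RefSeq end were read in all 5 libraries at 215, 1292 and 1479 bases.

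Among the laminin alpha chains was *Lama4*, which is known from endothelial basement membranes. By listed tags it had the highest ratio of cushion to chambers among members listed on both sides. It was at 110.1 TPM (AVC), 68.0 (OFT), 2.36 (atria), 1.42 (ventricles) and 44.5 (null). The AVC was 57.6-fold (exact p = 2.97e-10) and the OFT 35.5-fold above the chambers (exact p = 1.49e-08). The chamber levels rested on 11 and 6 tags. The 9 endothelial and endocardial markers had a median log2 ratio of 0.94 (AVC) and 0.79 (OFT), with 3 called higher in each and 1 lower in the AVC. Their summed levels were 499.6 TPM (AVC), 552 (OFT), 209.6 (atria), 274 (ventricles) and 605 (null), and their part in the *Lama4* result was not tested.

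*Lama5* was at 26.0 TPM (AVC), 28.3 (OFT), 2.79 (atria), 4.02 (ventricles) and 12.9 (null), 7.71-fold and 8.38-fold above the chambers in the AVC and the OFT (exact p = 3.08e-04 and 2.21e-04). *Lama2*, the laminin chain known from muscle, was listed in the AVC (19.3 TPM), the OFT (3.99) and the null (3.16) and in neither chamber, at least 17.1-fold and at least 3.54-fold lower. With 5 tags granted to each missing tag type, its call stood in the AVC (exact p = 7.63e-06) and not in the OFT (exact p = 0.0504). *Lama1*, by contrast, was at 12.0 TPM (AVC), 7.02 (OFT), 11.4 (atria), 7.34 (ventricles) and 1.39 (null), with no call in the AVC or the OFT (exact p = 0.660 and 0.593). *Lama3* was listed in the null alone, with 20 tags.

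*Lamb1*, the beta chain of most embryonic laminins, was at 519 TPM (AVC), 765 (OFT), 88.3 (atria), 135 (ventricles) and 200.2 (null). The OFT and the AVC were highest, 6.92-fold (exact p = 2.79e-04) and 4.69-fold (exact p = 0.00301, or 0.0803 with TMM) above the chambers, and its site 1 in the coding sequence gave most of the tags. *Lamb2* was listed in the AVC (28.8 TPM), the OFT (25.2) and the null (16.4) and not in the chambers, at least 5.12-fold and 4.49-fold lower. Both calls of *Lamb2* stood with 5 tags granted to each missing tag type (exact p = 0.00288 and 0.00607).

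*Lamc1*, the gamma chain shared by most laminins, did not follow them. It was at 102 TPM (AVC), 96.2 (OFT), 80.4 (atria), 73.9 (ventricles) and 159 (null), called in no comparison (log2 ratio 0.40 in the AVC and 0.32 in the OFT). Its 2 main sites differed. Site 1 gave 50.9 TPM (AVC), 58.3 (OFT), 80.4 (atria), 72.4 (ventricles) and 35.3 (null), whereas site 2 gave 36.0 TPM (AVC), 23.5 (OFT) and 81.8 (null) and was not listed in the chambers. Site 1 held all of the gene's tags in the atria, 98.1% of those in the ventricles, 60.6% for the OFT, 50% for the AVC and 22.2% for the null. Over the members together, site 1 shares were 76.7% (AVC), 76.5% (OFT), 77.9% (atria), 80.5% (ventricles) and 68.8% (null).

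The OFT against the AVC asked how the cushion regions differ from each other. Here 4 of 28 members tested were called higher in the OFT, where 5.22% of all genes were, and 7 lower, where 7.36% were, with a median log2 ratio of -0.44 for the members and -0.10 for all genes. TMM gave the same 4 and 7 (6.39% and 6.24% of all genes), and granting 5 tags to missing tag types gave 2 and 4 (1.24% and 1.99%). *Lamb3*, a beta chain of epithelial laminin, was listed in the OFT at 12.1 TPM and not in the AVC, a difference of at least 14.8-fold (exact p = 2.30e-07). It was measured by 1 tag type with 64 tags, and the call stood in every alternative. It was not listed in the chambers, at least 10.8-fold below the OFT. *Lama3*, an alpha chain of epithelial laminin, and *Itgb4*, the hemidesmosome beta chain, were not listed in the OFT, and *Cdh1*, an epithelial cadherin, was not listed in any library.

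*Itgb3* was 3.30-fold higher in the OFT than in the AVC (exact p = 0.0266, or 0.0607 with 5 tags granted to missing tag types). *Itgb8* was 5.23-fold lower (exact p = 0.00285), *Itga8* 5.20-fold lower (exact p = 0.00866), *Lama2* 4.83-fold lower (exact p = 0.00636) and *Itga4* 3.27-fold lower (exact p = 0.0218, or 0.0677 with all sequenced tags as totals). *Itgb1*, *Itgav*, *Lama5*, *Lamb2* and *Lamc1* differed by less than 0.2 on the log2 scale. Other calls, *Itga7* higher and *Itgal*, *Itgb2* and *Lamc3* lower, rested on at most 13 tags and were lost when 5 tags were granted to the missing tag types.

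**Figure D4:**
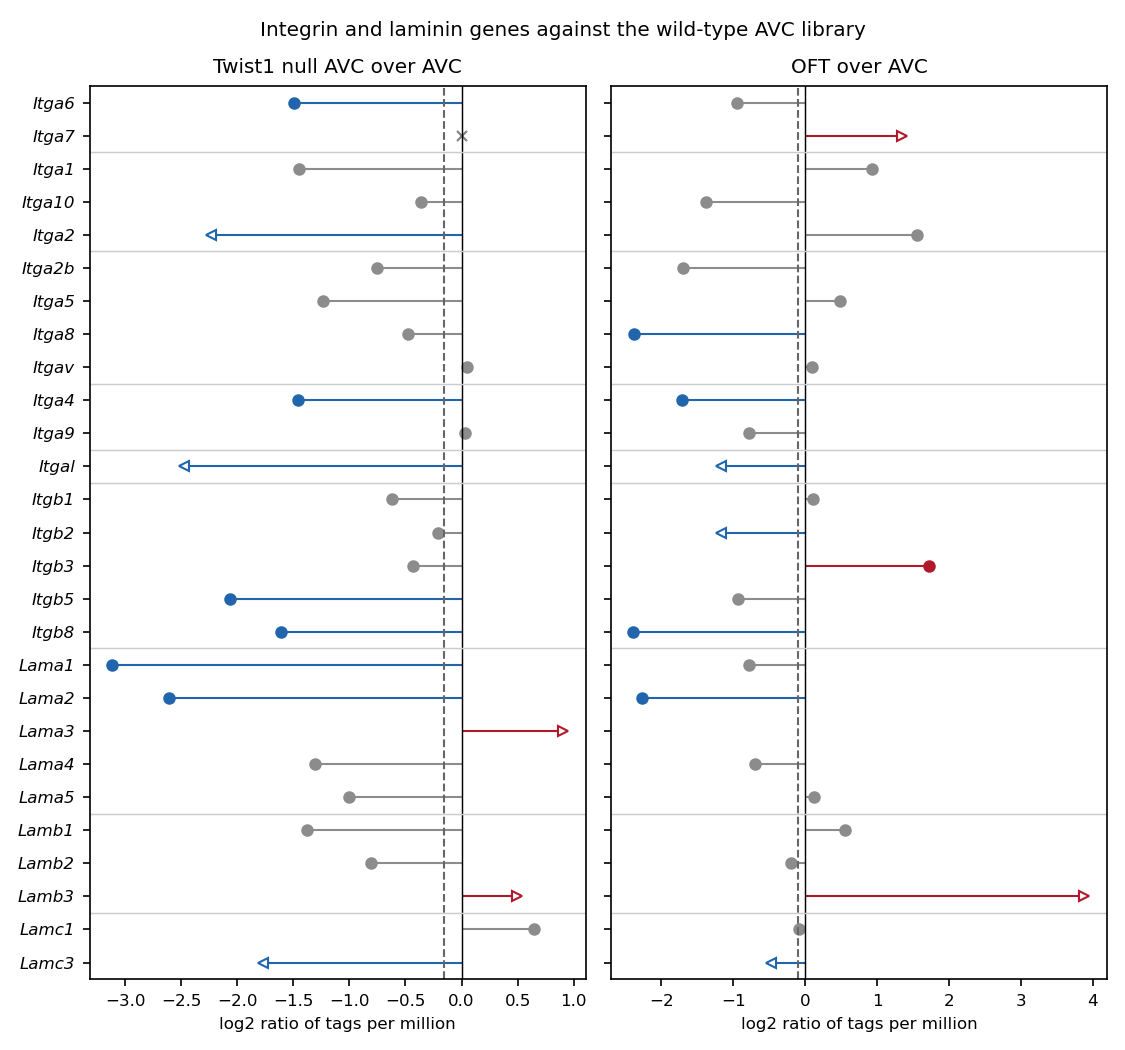
log2 ratios of TPM in the *Twist1* null AVC (left) and the OFT (right) over the wild-type AVC for the plotted members, red where called higher, blue where called lower and grey where not called, with open arrowheads for bounds, a cross for a gene within the listing limit and a dashed line for the median of all genes (-0.16 and -0.10). *Lama1* and *Lama2* reach furthest left in the null among genes listed on both sides, and *Lamb3* furthest right in the OFT.

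The *Twist1* null AVC against the wild-type AVC asked what differs with loss of *Twist1* and the change of strain. Of 29 members tested, 9 were called lower, where 12.7% of all genes were, and 3 higher, where 11.9% were. The median log2 ratio was -0.81 for the members and -0.16 for all genes, and 21 of the 28 named members had a lower level in the null. With TMM, which moved all genes by 0.24, 6 members were called lower (9.37% of all genes) and 3 higher (14.9%), and all sequenced tags as totals gave 6 lower (8.07%) and 3 higher (16.5%). Granting 5 tags to missing tag types gave 6 lower (10.8%) and none higher (5.89%).

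The laminin alpha chains *Lama1* and *Lama2* were lower in the null by 8.66-fold (exact p = 3.68e-04) and 6.10-fold (exact p = 0.00114). *Lama1* had 73 tags in the AVC and 18 in the much deeper null library, in which it was also below the atria and ventricles. *Lama4* (-1.31), *Lama5* (-1.01), *Lamb1* (-1.37) and *Lamb2* (-0.81) had negative log2 ratios that were not called (exact p = 0.0749, 0.182, 0.0603 and 0.274).

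*Lamc1* had a higher level in the null, 159 against 102 TPM, without a call (exact p = 0.376). Its sites moved in opposite directions: site 1 had 35.3 TPM in the null against 50.9 in the AVC, site 2 had 81.8 against 36.0, and site 7 had 26.3 against 2.96. *Lama3* and *Lamb3*, among the 3 members called higher, had 20 and 15 tags in the null and none listed in the AVC, at least 1.87-fold and 1.40-fold higher. Their calls were lost when 5 tags were granted to the AVC (exact p = 0.488 and 0.872).

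Of the integrin chains, the alpha v partners *Itgb5* and *Itgb8* were lower in the null by 4.18-fold (exact p = 0.00610) and 3.05-fold (exact p = 0.0324, or 0.0694 with TMM and 0.0977 with all sequenced tags as totals). *Itga4* was 2.75-fold lower (exact p = 0.0477, or 0.0961 with TMM and 0.136 with all sequenced tags as totals). *Itga2* was not listed in the null, at least 4.70-fold lower (exact p = 4.10e-05). *Itgal*, with 13 tags in the AVC, was also called lower (exact p = 8.36e-04). Both calls stood in every alternative in which the gene was tested. Neither gene had enough tags for the alternative limited to genes with at least 50 tags. *Lamc3*, with 8 tags in the AVC, was called lower (exact p = 0.00780) but not with 5 tags granted to the null (exact p = 0.160).

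*Itga6* was called lower by its RefSeq-linked tags (2.81-fold, exact p = 0.0467), but the direction turned with all transcripts counted (log2 ratio 0.98, exact p = 0.176), so no direction is given. The log2 ratios of *Itgav* (0.05), *Itga9* (0.03) and *Itgb2* (-0.21) were not called. *Itgb1* had 552 TPM in the null and 849 in the AVC, a log2 ratio of -0.62 that was not called (exact p = 0.388). Of the 7 cushion mesenchyme markers 4 were called lower and none higher in the null, with a median log2 ratio of -1.5, and their part in the lower levels above was not tested.

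The ventricles differed from the atria in few members. Of 17 tested, 2 were called higher in the ventricles, where 11.1% of all genes were, and none lower, where 9.04% were, by the exact test of edgeR. They were *Itga5*, given above, and *Itgal*, with 7 tags in the ventricles, which was lost with 5 tags granted to the atria (exact p = 0.829). TMM gave the same counts (9.16% of all genes higher and 10% lower), as did DESeq2 size factors, and granting 5 tags gave 1 higher and none lower (4.03% and 1.44%). The median log2 ratio was 0.05 for the members and 0.31 for all genes.

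Chains were then set beside their partners and ligands by region. Of 19 known integrin pairs, both chains were listed for 14 (AVC), 15 (OFT), 9 (atria), 9 (ventricles) and 14 (null). Of 9 laminin trimers, all chains were listed for 8, 8, 3, 3 and 9 in the same order. Trimers not fully listed in the chambers needed *Lama2*, *Lamb2*, or *Lama3* with *Lamb3*. Such chains may lie below the listing limits of 1.29 TPM (atria) and 1.42 (ventricles). In the null, where the limit was 0.462 TPM, *Lama3* and *Lamb3* were at 1.54 and 1.16 TPM. The lowest chain set a different limit in each region: *Lama4* with *Lamb1* and *Lamc1* had a lowest level of 102 TPM in the AVC (*Lamc1*) but 1.42 in the ventricles (*Lama4*), and alpha4 with beta1 had one of 142 TPM in the AVC and 4.93 in the atria (*Itga4* in both). Counting all transcripts would add the pair of alpha6 and beta1 in both chambers.

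The ligands of integrins other than laminins, a list with 27 genes in the reference of which 22 were listed, were called higher for 12 of 22 (AVC) and 13 of 22 (OFT) against the chambers, with median log2 ratios of 1.95 and 2.16, and 1 and 2 were called lower. Of all genes, 43.4% and 40.6% were called higher, and TMM left 10 and 9 of the list higher and 2 lower in each, beside 25.7% and 26.2% of all genes higher. In the null against the AVC 9 of 22 were called lower (12.7% of all genes) and 1 higher (11.9%), or 7 and 1 with TMM (9.37% and 14.9%). The median log2 ratio was -1.23, beside -0.16 for all genes. *Fn1*, fibronectin, was at 1567 TPM (AVC), 1042 (OFT), 312 (atria), 159.6 (ventricles) and 559.5 (null). Like *Itga4*, it was highest in the AVC, with both chambers below the other libraries. *Fn1* was 6.55-fold higher in the AVC than in the chambers (exact p = 3.92e-04) and 2.80-fold lower in the null (exact p = 0.0427, or 0.0868 with TMM). *Vcam1*, the other alpha4 beta1 ligand, was at 49.4 TPM (AVC), 13.5 (OFT), 21.4 (atria), 16.3 (ventricles) and 32.1 (null) and was called in neither the AVC nor the OFT against the chambers. Like *Itga4*, it was called lower in the OFT than in the AVC (3.66-fold, exact p = 0.0141, or 0.0196 with TMM).

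*Tnc*, tenascin-C, a ligand of alpha9 beta1 and alpha v beta3, was at 47.7 TPM (AVC), 523 (OFT), 3.64 (atria), not listed (ventricles) and 4.85 (null). It was highest in the OFT, 11-fold above the AVC (exact p = 1.33e-05), where *Itgb3* was also higher and *Itga9* was not called. *Npnt*, the alpha8 beta1 ligand nephronectin, was at 34.9 TPM (AVC), 28.1 (OFT), 15.2 (atria), 17.3 (ventricles) and 41.6 (null) and was not called in any comparison, while *Itga8* was lowest in the OFT. *Tgfb1* and *Ltbp1*, whose latent complex alpha v beta8 binds, were at 30.5 and 120.7 TPM (AVC), 19.6 and 141.6 (OFT), 2.79 and 7.71 (atria), 2.60 and 16.1 (ventricles) and 12.8 and 5.16 (null). *Ltbp1* was not called between the OFT and the AVC (1.17-fold, exact p = 0.752), while *Itgb8* was at 6.83 TPM in the OFT against 35.7 in the AVC. *Ltbp1* was 23.4-fold lower in the null (exact p = 7.68e-08) and *Tgfb1* was not called (exact p = 0.0942).

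Collagen genes were set beside the collagen-binding chains. *Col3a1*, which is also among the cushion mesenchyme markers, was at 1439 TPM (AVC), 2337 (OFT), 94.9 (atria), 109 (ventricles) and 207 (null), and *Col1a1* at 162 TPM (AVC), 212 (OFT), 28.5 (atria), 19.7 (ventricles) and 28.7 (null). Both were called higher in the AVC and OFT and lower in the null, where *Itga2* was not listed and *Itga1* had a log2 ratio of -1.45 without a call (exact p = 0.0525). *Col4a1*, a basement membrane collagen, was at 408 TPM (AVC), 382 (OFT), 338 (atria), 354 (ventricles) and 177 (null) and was not called in any of these comparisons.

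Other basement membrane genes, a list of 20 of which 19 were listed, were called higher for 10 of 19 (AVC) and 9 of 19 (OFT), with 2 lower in each and median log2 ratios of 1.62 and 1.38, beside 43.4% and 40.6% of all genes higher. With TMM 6 were higher and 3 lower in each, beside 25.7% and 26.2% of all genes higher. *Nid1*, nidogen-1, which joins laminin to type IV collagen, was at 383 TPM (AVC), 324 (OFT), 70.9 (atria), 75.1 (ventricles) and 141 (null), and *Hspg2*, perlecan, at 131 TPM (AVC), 141 (OFT), 9.64 (atria), 5.68 (ventricles) and 41.9 (null). Both were called higher in the AVC and the OFT, although *Nid1* in the OFT was not with TMM (exact p = 0.0767). Both were called lower in the null (exact p = 0.0487 for *Nid1* and 0.0265 for *Hspg2*), and neither was with TMM (exact p = 0.0978 and 0.0561). In the null 5 of 19 were called lower (12.7% of all genes) and 2 higher (11.9%), or 3 and 2 with TMM (9.37% and 14.9%). The median log2 ratio was -0.04, beside -0.16 for all genes.

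Laminin receptors other than integrins were called higher for 7 of 13 (AVC) and 8 of 13 (OFT), with none lower and median log2 ratios of 1.86 and 2.06, beside 43.4% and 40.6% of all genes higher. With TMM the AVC had 4 called higher and 1 lower, and the OFT had 5 called higher. The shares of all genes called higher were then 25.7% and 26.2%. *Dag1*, dystroglycan, was not among them. It was at 73.2 TPM (AVC), 65.1 (OFT), 59.8 (atria), 44.0 (ventricles) and 248 (null), with the null 3.38-fold above the wild-type AVC (exact p = 0.0178). *Sdc4*, a syndecan, was also higher in the null, 21.4 against 3.62 TPM (exact p = 0.00165). *Cd151*, a tetraspanin that associates with laminin-binding integrins, was lower, 55.6 against 207 TPM (exact p = 0.0109). In all 3 of 13 were called higher and 3 lower in the null, beside 11.9% and 12.7% of all genes. TMM gave the same counts, beside 14.9% and 9.37% of all genes.

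Cytoplasmic partners of integrins were a list with 31 genes in the reference. Of these, 11 of 30 were called higher (AVC) and 12 of 29 (OFT), and none lower. The median log2 ratios were 1.12 and 0.85. The shares of all genes called higher were 43.4% and 40.6%. With TMM the AVC had 6 called higher and the OFT 7, with 2 lower in each, beside 25.7% and 26.2% of all genes higher. *Tln1*, talin-1, was at 38.7 TPM (AVC), 42.9 (OFT), 1.5 (atria), not listed (ventricles) and 15.9 (null), and *Vcl*, vinculin, at 122 TPM (AVC), 118 (OFT), 15.0 (atria), 17.8 (ventricles) and 137 (null). Both were called higher in the AVC and the OFT, whereas *Ilk*, integrin-linked kinase, at 118 TPM (AVC), 137 (OFT), 71.6 (atria), 50.4 (ventricles) and 143 (null), was called in no comparison. In the null 3 of 30 were called lower and none higher by the exact test of edgeR, beside 12.7% and 11.9% of all genes. They included *Tln2* (exact p = 0.0300, or 0.0630 with TMM) and *Tns1* (exact p = 0.00130). With TMM 2 were lower and none higher, beside 9.37% and 14.9% of all genes.

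**Figure D5:**
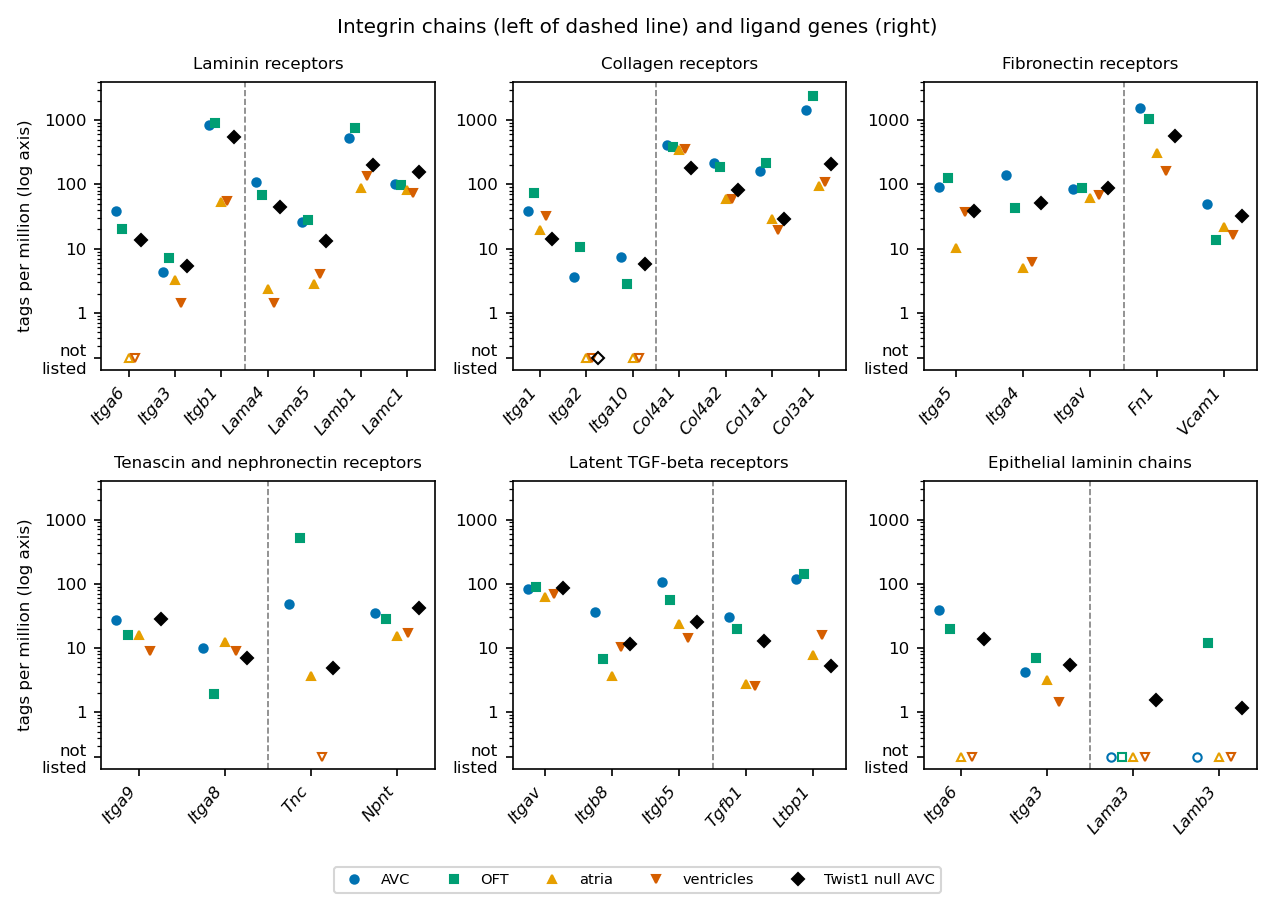
Levels in TPM on a log axis for integrin chains (left of the dashed line) and genes of their ligands (right) in 6 groups, with 1 symbol per library and open symbols at the bottom for genes not listed. The laminin and fibronectin panels show AVC and OFT symbols above both chamber symbols on both sides of the line, except for *Vcam1* in the OFT, by small distances for *Itgav* and *Lamc1*, which were not called, and the chamber symbols of *Itga6* count RefSeq-linked tags only.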

How the data were processed

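Tag-seq libraries had been built from poly(A) RNA of pooled dissected tissue, cut with NlaIII and MmeI, and sequenced once per group. The deposited files hold counts of each 17-base tag, and the authors removed tag types read 5 times or fewer. No gene mapping is in the files. Tags were matched in sense to every NlaIII site of GENCODE M21 transcripts linked to RefSeq, with 20 A added at the end, and counts of tags belonging to 1 gene were summed. Genes were compared by the exact test of edgeR 4.0.16 (R 4.3.3) on listed tag totals at a fixed dispersion of 0.12, checked on simulated data, with Benjamini-Hochberg adjustment, TMM and DESeq2 1.42.0 size factors as alternatives. The dispersion is an assumed value, since no library had a replicate to estimate it from. Python 3.11.15 with pandas 2.3.3, numpy 2.4.6, scipy 1.17.1 and matplotlib 3.10.9 did the rest, and intervals are Clopper-Pearson 95% intervals. PCR copies were not marked, so intervals cover counting error only. A fold bound granted 5 tags to each missing tag type in each library. Members at 10 TPM or more in any library, or called in any comparison, were named with values in each library, and Twist1 too. Any gene of the non-marker lists could be named, and marker lists were given by count and summed level. Some genes counted in the totals are not reported here by name. Members and lists were chosen with earlier results of these data known. Granting 5 tags to missing tag types and using all sequenced tags as totals were alternatives chosen after seeing the data.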

Additional observations from a re-analysis of the deposited data

Results flagged for a closer look

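Tags that matched no transcript in sense but 1 member in antisense lay outside the comparisons, and they were above 10 TPM for several members. Over all members they came to 323 TPM (AVC), 371 (OFT), 83.4 (atria), 72.4 (ventricles) and 791 (null). Tags opposite *Itgb1* made up most of this, with 212 TPM (AVC), 263 (OFT), 72 (atria), 59.2 (ventricles) and 654 (null), and the null held the highest level while its sense level was below those of the AVC and the OFT. Those opposite *Itga6* were at 43.0 TPM (AVC), 13.5 (OFT) and 58.0 (null), opposite *Itgav* at 28 (AVC), 25.8 (OFT) and 14 (null), and opposite *Lamc1* at 11.2 (AVC), 11.8 (OFT) and 49.1 (null). Those opposite *Lama4* were at 12.2 TPM (AVC) and 27.1 (OFT), and opposite *Lamb1* at 13.1 TPM (OFT).

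A tag that differs by 1 base from the main *Itgb1* tag was read at 19.4 TPM in the AVC, with 118 tags, and was not listed in the other libraries, including the null and the OFT, where the main tag had 4934 and 3029 tags. The source of these tags was not tested.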

How the results depend on the processing

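Of the 61 calls of members, 23 held in every alternative in which they were tested, among them *Itgb1*, *Lama4* and *Lamb2* in both cushion comparisons, *Lama1* and *Itga2* in the null, and *Lamb3* in the OFT. A gene absent from an alternative, such as *Itga2* in the null under the minimum of 50 tags, was not tested in it. A dispersion of 0.4 left 0 members lower in the AVC and 1 in the OFT against the chambers, 4 lower in the null, 2 lower in the OFT against the AVC and 0 higher in the ventricles, while 0.05 gave 14 lower in the null. With adjusted p these were 0 lower in the AVC, 1 higher and 4 lower in the null, 2 higher and 0 lower in the OFT against the AVC, and 0 higher in the ventricles. Genes with at least 50 tags gave 0 higher in the null, 4 lower in the OFT against the AVC and 1 higher in the ventricles. With 5 tags for missing tag types there were 0 higher in the null, 2 higher and 4 lower in the OFT against the AVC and 1 higher in the ventricles. The 3′-most site alone gave 0 lower in the AVC and 1 in the OFT against the chambers. Without tags starting with T these were 2 and 1, with 1 lower in the ventricles. Tag types with more than 10 tags gave 1 higher and 2 lower in the ventricles. *Itga6* in the null turned to a log2 ratio of 0.98 (exact p = 0.176) with all transcripts, which add sites past its RefSeq end. For the other changes the cause was not tested. Low members are limited by the listing minimum. No paired analysis was possible because each group had 1 library.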
